A study of Mus musculus with 8 samples.

Results

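Klrg1 encodes killer cell lectin-like receptor G1, and the regions of open chromatin described here are those that the deposited table of ATAC-seq counts assigns to this gene, 1 for each distinct position. There are 10 such regions among 46512, and 9 of them passed the filter on low counts that left 45709 regions to be tested. ATAC-seq uses a transposase that cuts DNA where chromatin is open, so the number of reads over a region measures its accessibility. The cells were sorted from C57BL/6 mice carrying a red fluorescent protein (RFP) reporter at Foxp3, the gene of the factor that defines regulatory T cells (Tregs), and each library was made from the cells of 3 pooled mice. The 4 groups, with 2 libraries each, were RFP-positive Tregs of male visceral adipose tissue (VAT), RFP-positive Tregs of female VAT, CD4+ T cells without RFP from male VAT, and RFP-positive Tregs of male spleen. All mice were untreated as far as the labels say, and female spleen was not analysed here. The labels do not state an age or a batch.

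KLRG1 is an inhibitory receptor of the C-type lectin-like family. It binds the classical cadherins E-, N- and R-cadherin (Cdh1, Cdh2, Cdh4), and its cytoplasmic tail carries an inhibitory motif that recruits the phosphatases SHIP-1 (Inpp5d) and SHP-2 (Ptpn11). It is best known as a marker of mature NK cells and of terminally differentiated effector CD8 T cells, and among Tregs it marks an effector-like subset common in non-lymphoid tissues, adipose tissue included.

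The 10 regions span 35.682 kb of chromosome 6 (mm10, GRCm38) around the Klrg1 gene, which occupies 12238 bp at chr6:122270596-122282833. They are numbered here by position. Regions 1 to 3 lie below the low-coordinate end of the gene: region 1 at chr6:122262440-122263015 is 7.581 kb from it, region 2 at chr6:122269251-122269422 is 1.174 kb from it, and region 3 at chr6:122270199-122270450 is 146 bp from it. Region 4 (chr6:122274526-122274801) and region 5 (chr6:122282683-122282764) lie inside the gene. Region 6 (chr6:122282837-122282956) starts 4 bp beyond the high-coordinate end, and region 7 (chr6:122283454-122283971) starts 0.621 kb beyond it.

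Farther out on the high side, region 8 (chr6:122289483-122297148) begins 6.65 kb from the gene and overlaps the transcribed pseudogene Gm6637. Regions 9 (chr6:122297597-122297678) and 10 (chr6:122297969-122298122) begin 14.764 kb and 15.136 kb from it. Region 8 is 7665 bp long, whereas the other 9 are under 1000 bp. Of the 10 regions, 7 also carry the symbol of another gene in the table: regions 4 to 7 that of Gm6637, and regions 8 to 10 those of Gm6637 and of M6pr, a mannose-6-phosphate receptor gene. The strand of Klrg1 is not in the gene table used here, so the ends are called by coordinate.

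Klrg1 chromatin was most accessible in male VAT Tregs. Summed over the 9 short regions, it reached 65.9 and 32.6 CPM (read counts scaled to library size) in male VAT Tregs, 13.4 and 13.7 CPM in female VAT Tregs, 15.0 and 12.1 CPM in male VAT CD4 cells, and 13.2 and 12.1 CPM in male spleen Tregs. The 3 other groups lay close together, between 12.1 and 15.0 CPM, and both male VAT Treg libraries stood above all 6 of their libraries. Both male VAT Treg libraries were above all 6 other libraries in 8 of the 10 regions, all but regions 5 and 9. Over all tested regions 7.68% had this pattern, and over those under 1000 bp 14.5%. At regions 5 and 9 no group had both libraries above all others, and at the 8 other regions no second group could. Female VAT Tregs, VAT CD4 cells and spleen Tregs led in this way at 4.4%, 7.47% and 6.06% of all tested regions. Finding none among so few regions is therefore near the background. ATAC-seq of bulk cells cannot tell more KLRG1-positive cells in a sort from more open chromatin in each cell.

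**Figure D1:**
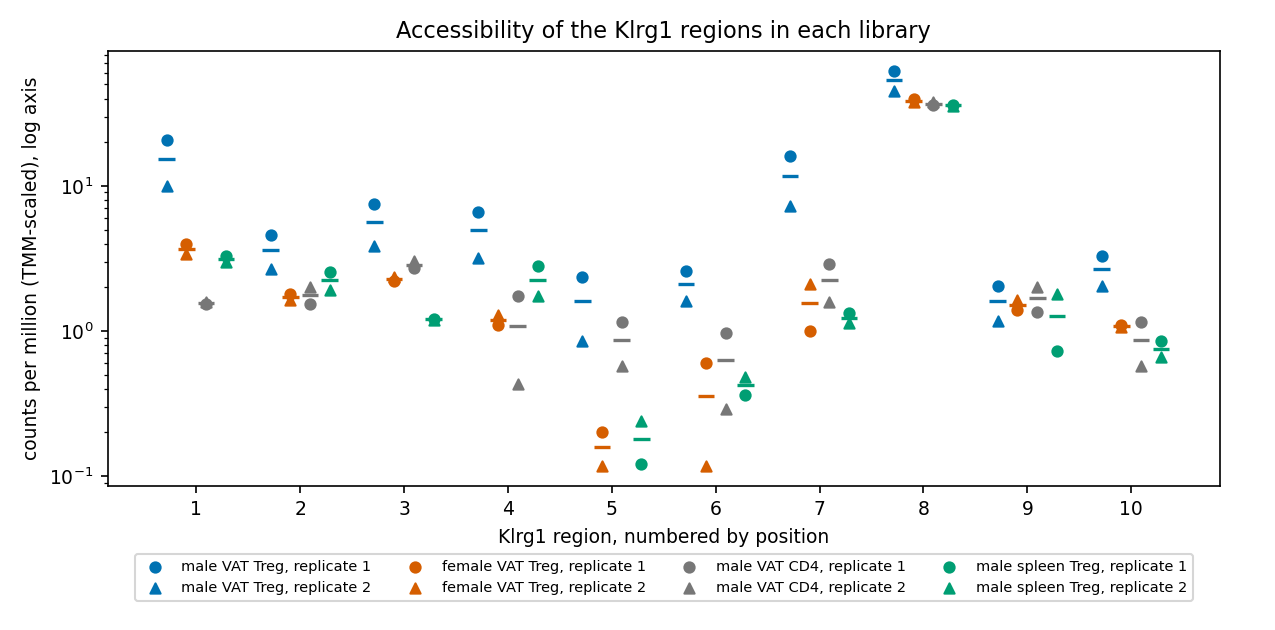
CPM (log axis) of each library at Klrg1 regions 1 to 10; circles are replicate 1, triangles replicate 2, and bars the mean of the 2 libraries of a group. Both male VAT Treg libraries (blue) lie above all other libraries at every region except 5 and 9.

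The 2 male VAT Treg libraries differed in size of signal. Replicate 1 exceeded replicate 2 in 10 of 10 Klrg1 regions, by a ratio of 1.38 to 2.75 with a median of 1.84. Over all tested regions under 1000 bp the ratio of these libraries had a median of 1.26, against 0.989 between the female VAT Treg libraries, 0.908 between the VAT CD4 libraries and 1.02 between the spleen Treg libraries. Of the counts of male VAT Treg replicate 1, 5.55% fell in regions under 1000 bp, whereas replicate 2 had 4.22% there and the 6 libraries of other groups had 3.60 to 4.37%. The Klrg1 tests with male VAT Tregs are therefore also given without replicate 1. So are the list counts and medians for transcription factors and tissue Treg genes. Calls at single genes of any list, at the other lists, at Foxp3 and at Mfap5 are given from all 8 libraries alone.

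Counts over the tested regions ran from 5722254 to 15798875 per library, and the Klrg1 regions themselves held 1 to 985 counts per library. Foxp3 separated the sorts at some of its regions and not at others. A region that starts at 7582208 on chromosome X had 18.8 and 13.97 CPM in male VAT Tregs, 27.1 and 32.9 CPM in female VAT Tregs, 1.54 and 2.16 CPM in RFP-negative VAT CD4 cells, and 13.6 CPM in both spleen Treg libraries. Male VAT Tregs were below female VAT Tregs there (log2 fold change -0.86 ± 0.20, edgeR, adjusted p = 0.00286). At a second Foxp3 region, starting at 7572009, male VAT Tregs and spleen Tregs overlapped VAT CD4 cells, with 42.7 and 24.6 CPM in male VAT Tregs, 57.3 and 52.3 CPM in female VAT Tregs, 32.4 and 36.2 CPM in VAT CD4 cells, and 27.6 and 38.9 CPM in spleen Tregs. The Y-linked gene Uty had 0 counts in both female libraries and 11.2 to 19.0 CPM in the 6 male ones.

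Set per kilobase of length, the long region 8 lay below all short regions in male VAT Tregs alone. In the other groups its mean lay within the range of the short regions. It had 5.04 CPM per kb in female VAT Tregs, 4.81 in VAT CD4 cells and 4.67 in spleen Tregs. In male VAT Tregs the 9 short regions had similar mean densities, between 17.4 CPM per kb at region 10 and 26.8 CPM per kb at region 1, and the long region 8 had 7.01. In the other groups the short regions differed more among themselves: in female VAT Tregs they ran from 1.96 CPM per kb at region 5 to 18.8 at region 9, in VAT CD4 cells from 2.72 at region 1 to 20.8 at region 9, and in spleen Tregs from 2.22 at region 5 to 15.5 at region 9. By its mean, region 9 was thus the densest Klrg1 region of each of those 3 groups. In spleen Treg replicate 1, however, it had 8.98 CPM per kb from 6 counts, and region 2 had 14.9. Regions 5 and 9 are only 81 bp long, and how width affects this measure was not tested. The density of region 9 in male VAT Tregs was 19.8 CPM per kb, within the range of the other groups' libraries.

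**Figure D2:**
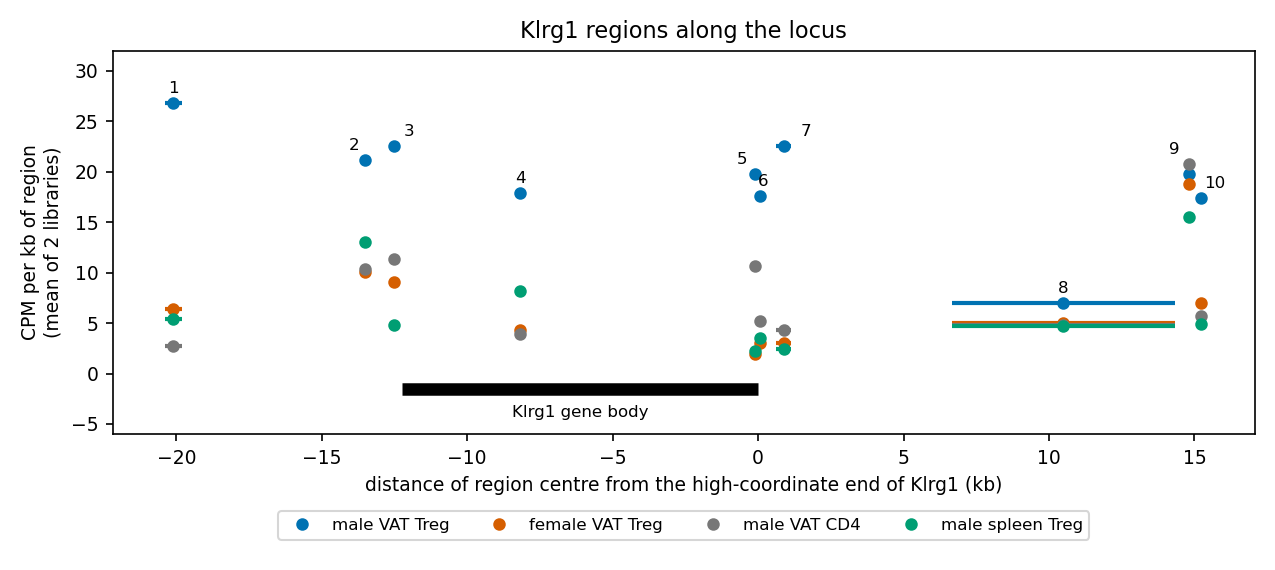
Mean CPM per kb of the 10 Klrg1 regions against the distance of the region's centre from the high-coordinate end of the gene, in kb; points are means of 2 libraries, horizontal lines the region's length, and the black bar the gene body. The male VAT Treg points (blue) run between 17.4 and 26.8 at the short regions, while at region 9 all groups lie between 15.5 and 20.8.

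Region 7, just beyond the high-coordinate end of the gene, had 16.1 and 7.25 CPM in male VAT Tregs, 1.00 and 2.11 CPM in female VAT Tregs, 2.89 and 1.59 CPM in VAT CD4 cells, and 1.33 and 1.13 CPM in spleen Tregs. Even the lower male VAT Treg library was above all others, and the other groups overlapped in part. Its reads made up 24.4% of all reads over the 9 short Klrg1 regions in male VAT Treg replicate 1 (95% exact Clopper-Pearson interval 21.8 to 27.2%) and 22.2% in replicate 2 (17.7 to 27.3%). In female VAT Tregs that share was 7.46% and 15.4%, in VAT CD4 cells 19.2% and 13.1%, and in spleen Tregs 10.1% and 9.36%. The share of region 7 was thus as high in the weaker as in the stronger male VAT Treg library within counting error, although their levels differed. These intervals cover counting error only, since the reads carry no molecular identifiers.

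Region 1, the farthest from the gene on the low side, had 20.8 and 10.02 CPM in male VAT Tregs, 3.99 and 3.40 CPM in female VAT Tregs, 1.54 and 1.59 CPM in VAT CD4 cells, and 3.27 and 2.99 CPM in spleen Tregs. The groups did not overlap and fell into an order of male VAT Tregs, female VAT Tregs, spleen Tregs and VAT CD4 cells, of which the last 3 did not pass a test against each other (given with the comparisons). Region 1 took 31.6% and 30.7% of the short-region reads in the male VAT Treg libraries, 29.9% and 24.8% in the female ones, 10.3% and 13.1% in VAT CD4 cells, and 24.8% and 24.6% in spleen Tregs. Its share was lowest in both libraries of the RFP-negative cells.

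Region 3, next to the low-coordinate end of the gene, had 7.48 and 3.84 CPM in male VAT Tregs, 2.19 and 2.35 CPM in female VAT Tregs, 2.70 and 3.03 CPM in VAT CD4 cells, and 1.21 and 1.19 CPM in spleen Tregs. The groups again did not overlap, but here the spleen Tregs were lowest and the VAT CD4 cells second. Region 4, inside the gene, had 6.65 and 3.20 CPM in male VAT Tregs, 1.10 and 1.29 CPM in female VAT Tregs, 1.73 and 0.433 CPM in VAT CD4 cells, and 2.79 and 1.73 CPM in spleen Tregs. At this region the lower male VAT Treg library was only a little above the higher spleen Treg library.

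The pair of regions at the high-coordinate end of the gene held few reads. Region 5 had 37 and 8 counts in male VAT Tregs, 2 and 1 counts in female VAT Tregs, 6 and 4 in VAT CD4 cells, and 1 and 4 in spleen Tregs, and it did not pass the filter on low counts, which asked for 1.13 CPM on unscaled library totals in at least 2 libraries. On the CPM scale male VAT Treg replicate 2, with 0.853, was below VAT CD4 replicate 1, with 1.16. From the summed counts, of which replicate 1 gave 37 of 45, region 5 was 11.1 times as accessible in male as in female VAT Tregs (exact 95% counting interval 3.55 to 55.6), 8.94 times as in spleen Tregs (3.56 to 28.9) and 2.17 times as in VAT CD4 cells (1.08 to 4.83). Region 6 had 2.60 and 1.599 CPM in male VAT Tregs, 0.598 and 0.117 CPM in female VAT Tregs, 0.963 and 0.288 CPM in VAT CD4 cells, and 0.364 and 0.478 CPM in spleen Tregs. Regions 6 and 10 reached that level in male VAT Tregs alone, so they were tested because of the group in which they were high.

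The remaining regions varied less. Region 8, the long one, had 62.4 and 45.1 CPM in male VAT Tregs, 39.6 and 37.7 CPM in female VAT Tregs, 36.0 and 37.8 CPM in VAT CD4 cells, and 36.4 and 35.3 CPM in spleen Tregs. Region 10 had 3.29 and 2.03 CPM in male VAT Tregs against 0.577 to 1.16 CPM in the other 6 libraries, and region 2 had 4.56 and 2.67 CPM against 1.54 to 2.55 CPM. Region 9 had 2.03 and 1.17 CPM in male VAT Tregs against 0.727 to 2.02 CPM elsewhere, and there all groups overlapped.

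The comparison of male with female VAT Tregs asks how Klrg1 chromatin in fat Tregs differs between the sexes. In edgeR's quasi-likelihood test, adjusted by Benjamini-Hochberg over all 45709 regions, 4 of the 9 tested Klrg1 regions were higher in male VAT Tregs at an adjusted p under 0.05 and 0 were lower. All 4 are among the 7 regions that would have passed the filter without male VAT Tregs. Over all tested regions 2.04% were called higher and 1.21% lower, and over those under 1000 bp 4.68% were called higher. Region 7 had a log2 fold change of 2.95 ± 0.37 (approximate standard error; adjusted p = 1.53e-11) and region 1 one of 2.08 ± 0.29 (adjusted p = 2.2e-09). Region 4 followed with 2.07 ± 0.47 (adjusted p = 0.00133) and region 3 with 1.34 ± 0.40 (adjusted p = 0.0327). Among the 16363 tested regions under 1000 bp, region 7 ranked 79 by log2 fold change and region 1 ranked 391.

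Regions 2, 6, 8 and 10 had both male libraries above both female ones without passing the test. Their log2 fold changes were 1.09 ± 0.46 at region 2, 2.48 ± 0.78 at region 6, 0.48 ± 0.18 at region 8 and 1.32 ± 0.60 at region 10, with adjusted p between 0.0505 at region 6 and 0.270 at region 10 (edgeR). Region 9 had 0.12 ± 0.57 (adjusted p = 0.971). In all, the 2 sexes did not overlap in 9 of the 10 regions, all but region 9, and males were higher in each, against 20.8% of all tested regions that did not overlap in this direction. Without the filter, the median log2 fold change was 1.71 over the 10 Klrg1 regions, 0.01 over all regions and 0.11 over those under 1000 bp.

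Without male VAT Treg replicate 1, regions 1 and 7 were still called higher in male than in female VAT Tregs, with log2 fold changes of 1.43 and 2.24 (edgeR, adjusted p = 0.0118 and 0.00251). Regions 3 and 4 then had log2 fold changes of 0.76 and 1.42 and were not called (adjusted p = 0.556 and 0.266). DESeq2 likewise called regions 1 and 7 alone, and so did edgeR without female VAT Treg replicate 1. Over the 8 fits that each leave out 1 library, region 3 was called in 5 and region 4 in 6. With 2 libraries a group, these p-values measure the spread between libraries of pooled mice, and fits that leave 1 library in a group take its spread from the others.

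Against spleen Tregs of the same sex, the comparison turns to tissue. Of the 7 Klrg1 regions that would have passed the filter without male VAT Tregs, 4 were higher in male VAT Tregs and 0 lower, where 4.64% of all tested regions were called higher, 2.09% lower, and 10.2% of those under 1000 bp higher. Region 7 led with a log2 fold change of 3.28 ± 0.37 (edgeR, adjusted p = 1.27e-14), rank 150 among the 16363 short regions. Region 1 had 2.33 ± 0.29 (adjusted p = 3.19e-12) and region 3 had 2.25 ± 0.42 (adjusted p = 1.55e-05). Region 8 had 0.59 ± 0.18 (adjusted p = 0.0209). Regions 6 and 10, tested only because they were high in male VAT Tregs, were called as well (adjusted p = 0.0364 and 0.0382), which makes 6 of the 9 tested and is given as a description. Region 4 missed the threshold with 1.20 ± 0.42 (adjusted p = 0.0592).

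Without male VAT Treg replicate 1, regions 1 and 7 had log2 fold changes of 1.69 and 2.57 against spleen Tregs (edgeR, adjusted p = 0.00149 and 0.000242) and were the 2 regions called. Region 3 then had 1.67 (adjusted p = 0.059). Leaving out either spleen Treg library ended the calls of regions 6, 8 and 10 and left 3 regions called. Over the 8 fits without 1 library, region 6 was called in 0, region 10 in 1 and region 8 in 5.

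Against RFP-negative CD4 cells of the same tissue and sex, male VAT Tregs were higher at 4 of the 9 tested regions, all 4 among those same 7, and lower at 0, with 5.18% of all tested regions called higher, 2.51% lower, and 10.3% of those under 1000 bp higher. Here region 1 led, with a log2 fold change of 3.31 ± 0.36 (edgeR, adjusted p = 1.54e-15) and rank 142 of the 16363 short regions, and region 7 had 2.44 ± 0.38 (adjusted p = 4.54e-08) and rank 557. Region 4 had 2.30 ± 0.52 (adjusted p = 0.000604) and region 8 had 0.55 ± 0.18 (adjusted p = 0.0422). Region 3, called in both other comparisons of male VAT Tregs, had 1.00 ± 0.41 here (adjusted p = 0.136). Without male VAT Treg replicate 1, regions 1 and 7 had 2.67 and 1.73 (adjusted p = 3.28e-06 and 0.0317) and were the 2 regions called. Leaving out VAT CD4 replicate 2 also left 2 regions called, with region 4 at 1.53 (adjusted p = 0.144), and region 8 was called in 1 of the 8 fits without 1 library.

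**Figure D3:**
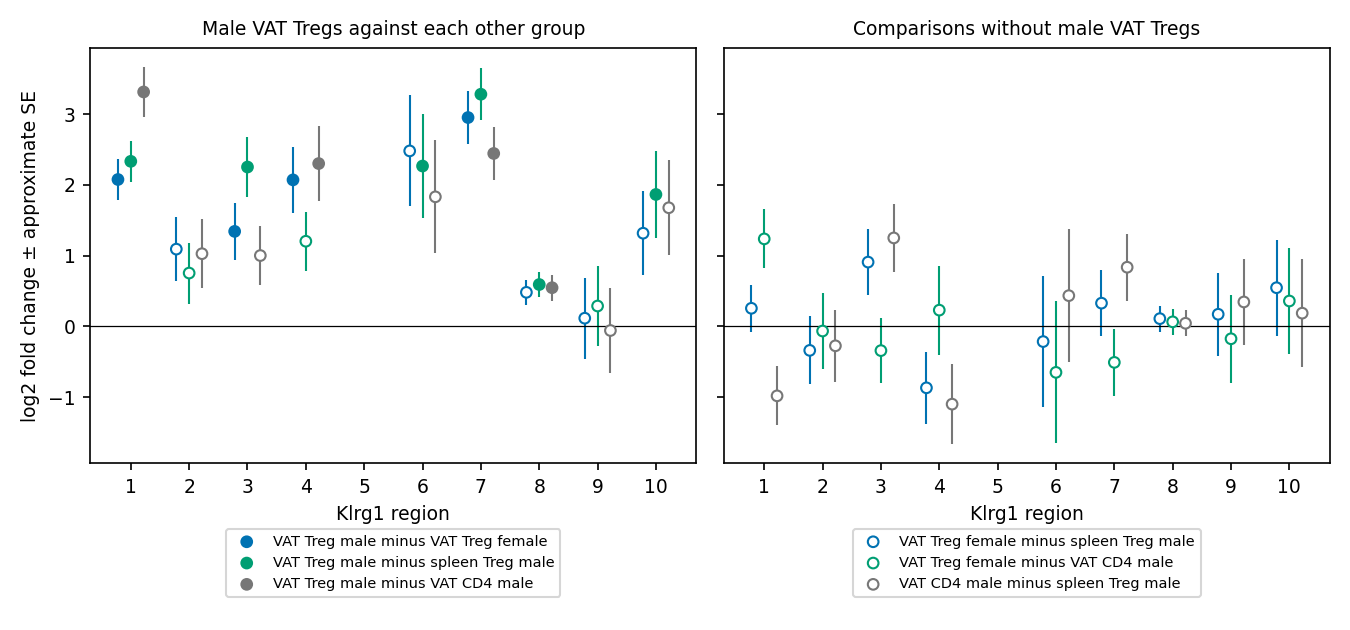
Log2 fold changes with approximate standard errors (edgeR) of the 9 tested Klrg1 regions, in the 3 comparisons with male VAT Tregs (left) and the 3 without them (right); filled points have an adjusted p under 0.05. Regions 1 and 7 are filled in all 3 comparisons on the left, and no point is filled on the right.

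**Figure D4:**
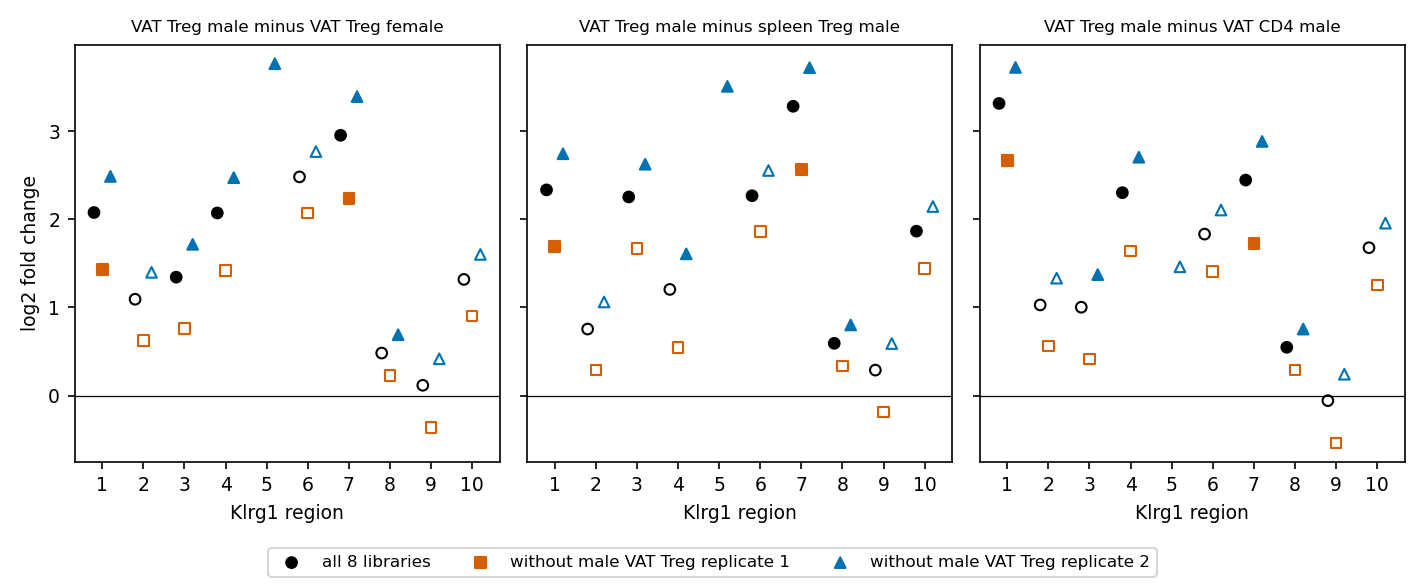
Log2 fold changes of the Klrg1 regions in male VAT Tregs against each other group, from all 8 libraries and without either male VAT Treg library; filled symbols have an adjusted p under 0.05 (edgeR). Without replicate 1 (squares) only regions 1 and 7 stay filled, at 1.43 and 2.24 against female VAT Tregs.

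These 3 comparisons share the male VAT Treg libraries and are not independent. Regions 1 and 7 were the ones called in all 3 of them under each of the 8 alternative settings and each of the 8 fits without 1 library.

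No Klrg1 region was called between female VAT Tregs and spleen Tregs, where 1.18% of all tested regions were called higher and 0.197% lower. The count was 0 also at an unadjusted p under 0.05 in edgeR, in DESeq2 and in limma-voom, and 1 in limma-trend on the deposited log2 values. The share of all regions under an unadjusted 0.05 was not counted in the comparisons without male VAT Tregs. Here the lowest edgeR p of a Klrg1 region, 0.0535 at region 3, ranked 4407 of the 45709 tested regions. The log2 fold changes, female VAT minus male spleen, lay between -0.87 ± 0.50 at region 4 and 0.91 ± 0.47 at region 3, and sex differs between these groups as well as tissue. At region 7 the value was 0.33 ± 0.46 and at region 1 it was 0.26 ± 0.33. The 2 groups did not overlap at 6 of the 10 regions, with female VAT Tregs above at 4 and below at 2. Of all tested regions 20.9% lay above and 21% below in this way.

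Between female VAT Tregs and male VAT CD4 cells edgeR called 0 Klrg1 regions, against 2.29% of all tested regions called higher and 1.54% lower. With unadjusted p (threshold 0.05) the count was 1 in edgeR, DESeq2 and limma-voom. That region was region 1, with a log2 fold change of 1.24 ± 0.42 (edgeR, adjusted p = 0.0705), and limma-trend on the deposited log2 values called it (adjusted p = 0.0346). By edgeR p it ranked 2088 of the 45709 tested regions. Female VAT Tregs were above the CD4 cells in both libraries at region 1 alone among the 10, and below them in both libraries at regions 3 and 5, where 23% of all tested regions lay above and 22.7% below in this way.

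Between male VAT CD4 cells and male spleen Tregs 0 of the 9 tested regions were called, against 2.07% higher and 1.89% lower over all tested regions. By edgeR, 1 region was higher and 1 lower when p was left unadjusted (threshold 0.05); on the same count DESeq2 and limma-voom each had 1 higher, and limma-trend had 1 higher and 2 lower. The 2 edgeR regions pointed in opposite directions. Region 3 had a log2 fold change of 1.25 ± 0.48 (adjusted p = 0.136) and region 1 one of -0.98 ± 0.42 (adjusted p = 0.199). VAT CD4 cells lay above spleen Tregs in both libraries at 3 of the 10 regions and below at 1, and 6 overlapped. The share of all regions that did not overlap was not counted for this comparison, so these counts are a description only.

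Neighbouring regions of other genes were examined in the same way. Within 250 kb of the Klrg1 regions the table holds 8 tested regions assigned to other genes, and 0 of them were called between male and female VAT Tregs, with log2 fold changes from -0.52 to 0.79; with 2.04% of all tested regions called higher and 1.21% lower, a count of 0 among so few is near the background. On the low side, the nearest was a region at the pseudogene Mug-ps1, 10.43 kb from the gene, with a log2 fold change between the sexes of 0.18 ± 0.26 (edgeR). On the high side, the nearest was a short region at M6pr, 20.838 kb from the gene, with 0.79 ± 0.67, the largest of the 8. M6pr and Phc1, which encodes a Polycomb protein, share the next region, 21.502 kb from the gene, with 0.12 ± 0.17. Against spleen Tregs, male VAT Tregs were lower at 1 of these regions, beside 2.09% of all tested regions. It lies 250.071 kb from Klrg1 and is assigned to Mfap5, an extracellular matrix gene (-1.24 ± 0.26, edgeR, adjusted p = 0.000227). Male VAT Tregs were higher than VAT CD4 cells at 1, beside 5.18% of all tested regions. That region lies 103.884 kb from Klrg1 and is assigned to the long non-coding RNA gene 1700063H04Rik (1.05 ± 0.29, edgeR, adjusted p = 0.00817). The call ended without male VAT Treg replicate 1, where the log2 fold change was 0.77. The same Mfap5 region was lower in VAT CD4 cells than in spleen Tregs (-1.04 ± 0.28, adjusted p = 0.0135).

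**Figure D5:**
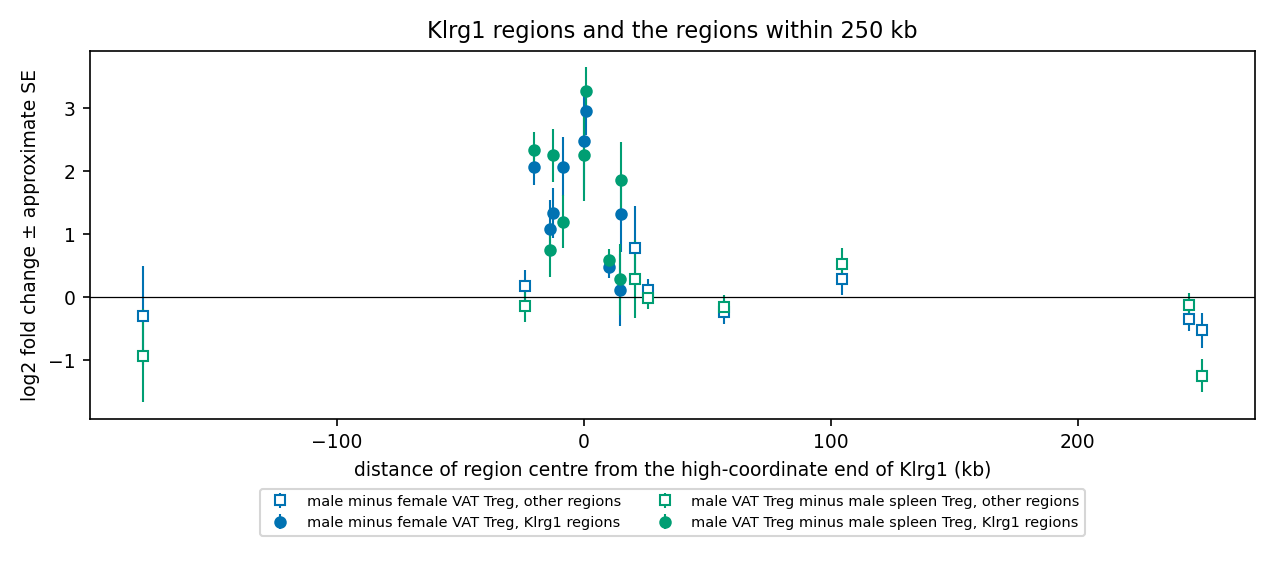
Log2 fold changes with approximate standard errors (edgeR) of the 9 tested Klrg1 regions (filled circles) and the 8 tested regions of other genes within 250 kb (open squares), against the distance of the region's centre from the high-coordinate end of Klrg1. The squares lie between -0.52 and 0.79 for male minus female VAT Tregs, and region 7 reaches 2.95.

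The NK gene complex, the cluster on the same chromosome that holds most other lectin-like receptors of NK and T cells, was counted region by region. Of its 28 listed genes 19 had a tested region, 32 regions in all, and 0 were called between male and female VAT Tregs or between male VAT Tregs and spleen Tregs, where over all regions 2.04% and 4.64% were called higher and 1.21% and 2.09% lower. Against VAT CD4 cells 2 were lower in male VAT Tregs and 0 higher, beside 2.51% and 5.18% over all regions. A region shared by Klrc1 and Klrc2, the genes of NKG2A and NKG2C, averaged 2.24 ± 0.75 CPM in male VAT Tregs and 6.98 ± 1.30 CPM in VAT CD4 cells (SD, n = 2 each, edgeR, adjusted p = 0.00372). The other Treg groups were below VAT CD4 cells there too. Female VAT Tregs had 1.47 ± 0.75 CPM and spleen Tregs 1.17 ± 0.80 CPM (edgeR, adjusted p = 0.000372 and 3.82e-05). The median log2 fold change of the 32 regions between the sexes was -0.06, beside 0.01 over all regions.

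Markers of NK and CD8 cells, the other cells in which Klrg1 is usually expressed, had 21 tested regions at 8 of 10 genes. None was called between male and female VAT Tregs or between male VAT Tregs and spleen Tregs. Over all tested regions 2.04% were called higher and 1.21% lower between the sexes, and 4.64% and 2.09% against spleen Tregs. A count of 0 among 21 regions is near these shares. By contrast with VAT CD4 cells, 3 regions, at the perforin gene Prf1 and at Nkg7, were lower in male VAT Tregs, beside 2.51% of all regions. The summed level was 292.8 and 259.5 CPM in male VAT Tregs, 253.2 and 273.7 CPM in female VAT Tregs, 272.1 and 289.2 CPM in VAT CD4 cells, and 287.3 and 280.7 CPM in spleen Tregs. The male VAT Treg libraries overlapped those of each other group, and both female VAT Treg libraries lay below both spleen Treg libraries. Cd8a and Ncr1, an NK receptor gene, had no region kept. Eomes and Klrb1c stand on other lists too. Between the sexes, 0 of the 7 B cell, 8 myeloid and 24 adipocyte and stromal marker regions were called, which among so few is also near the background.

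The counts at the ligand and phosphatase genes are near the shares over all regions, of which male VAT Tregs were higher at 2.04% and lower at 1.21% against female VAT Tregs, at 4.64% and 2.09% against spleen Tregs, and at 5.18% and 2.51% against VAT CD4 cells. Of 20 regions at Cdh1, Cdh2 and Cdh4, 0 were called between male and female VAT Tregs. Male VAT Tregs were higher than spleen Tregs at 1 region of Cdh4 (0.51 ± 0.17, edgeR, adjusted p = 0.0495), and against VAT CD4 cells they were higher at 1 region of Cdh1 (0.63 ± 0.21, adjusted p = 0.0390) and lower at 1 of Cdh2 (-0.94 ± 0.26, adjusted p = 0.00907). The phosphatase genes Inpp5d and Ptpn11 had 9 regions, with 0 called in any comparison of male VAT Tregs. An Inpp5d region was higher in VAT CD4 cells than in spleen Tregs (0.76 ± 0.24, adjusted p = 0.0425).

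Transcription factors tied to Klrg1 in T cells gave calls at few genes between the sexes. Of 73 regions at 10 factor genes, 6 were higher in male than in female VAT Tregs and 0 lower, at 2 genes, Prdm1 and Zeb2, whose products are transcriptional repressors needed for terminal effector differentiation of CD8 T cells. Over all tested regions 2.04% were higher and 1.21% lower, and over those under 1000 bp 4.68% were higher. The leading Prdm1 region, 131 bp long and starting at 44677048 on chromosome 10, averaged 2.84 ± 1.45 CPM in male and 0.325 ± 0.037 CPM in female VAT Tregs (SD, n = 2 each), a log2 fold change of 3.11 ± 0.75 (edgeR, adjusted p = 0.00329). Against spleen Tregs 9 regions were higher and 8 lower, beside 4.64% and 2.09% of all regions, and against VAT CD4 cells 10 were higher and 7 lower, beside 5.18% and 2.51%. At Tcf7, the gene of TCF-1, a factor of naive and memory T cells, a region was lower in male VAT Tregs. They had 1.95 ± 1.10 CPM against 16.4 ± 4.95 CPM in VAT CD4 cells and 4.60 ± 0.67 CPM in spleen Tregs (SD, n = 2 each, edgeR, adjusted p = 3.28e-16 and 0.0111). Female VAT Tregs, with 3.71 ± 0.11 CPM, were also below VAT CD4 cells there (edgeR, adjusted p = 5.62e-09), and so were spleen Tregs (adjusted p = 2.78e-07). The median log2 fold change of the 73 regions between the sexes was -0.01, beside 0.01 over all regions.

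Genes that accompany KLRG1 on tissue Tregs, among them Il1rl1 (the IL-33 receptor ST2), Pparg (a nuclear receptor of fat Tregs), Rora and Il10, had 94 regions at 12 genes. Of these, 9 were higher in male than in female VAT Tregs and 0 lower, at 4 genes, with a median log2 fold change of 0.40 against 0.01 over all regions. The share called higher was 2.04% over all regions and 4.68% over those under 1000 bp. A Pparg region averaged 5.31 ± 2.98 CPM in male and 1.12 ± 0.25 CPM in female VAT Tregs (SD, n = 2 each; log2 fold change 2.25 ± 0.49, edgeR, adjusted p = 0.00065). An Il10 region averaged 6.84 ± 4.84 CPM in male and 1.70 ± 0.41 CPM in female VAT Tregs (log2 fold change 2.03 ± 0.41, adjusted p = 0.000201). Against spleen Tregs 29 regions were higher and 5 lower, beside 4.64% of all regions called higher and 2.09% called lower. Of those under 1000 bp, 10.2% were called higher. Against VAT CD4 cells 28 were higher and 1 lower, beside 5.18% of all regions called higher and 2.51% called lower. Of those under 1000 bp, 10.3% were called higher.

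Most of the higher calls on these lists rested on male VAT Treg replicate 1, as did most higher calls over all regions. Without it, the regions called higher in male VAT Tregs over the whole table numbered 235 against female VAT Tregs, 716 against spleen Tregs and 844 against VAT CD4 cells, where all 8 libraries gave 934, 2121 and 2368. Of the list regions, 0 of the 94 tissue Treg regions were higher in male than in female VAT Tregs, 5 than in spleen Tregs and 5 than in VAT CD4 cells. Of the 73 factor regions, 1 was then higher than in female VAT Tregs, 1 than in spleen Tregs and 1 than in VAT CD4 cells. On these lists the lower calls changed less, but over the whole table the lower calls between the sexes grew in number. The 73 factor regions without replicate 1 had median log2 fold changes of -0.19 against female VAT Tregs and -0.17 against spleen Tregs. Against VAT CD4 cells their median was -0.15. All 8 libraries gave -0.01, -0.12 and 0.07 in these 3 comparisons. With all 8 libraries the tissue Treg medians were 0.50 against spleen Tregs and 0.70 against VAT CD4 cells. Without replicate 1 they were 0.16 and 0.29. The median log2 fold change of the tissue Treg regions between the sexes was then -0.003.

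Some tissue Treg regions were called in female VAT Tregs. With the shares over all regions given here, 0 calls among the 9 tested Klrg1 regions were near the background. Against spleen Tregs, 7 of the 94 regions were higher and 1 lower, beside 1.18% higher and 0.197% lower over all regions. Against VAT CD4 cells 9 were higher and 1 lower, beside 2.29% and 1.54%. A Rora region averaged 4.02 ± 0.46 CPM in female VAT Tregs and 0.902 ± 0.094 CPM in spleen Tregs (SD, n = 2 each; log2 fold change 2.16 ± 0.45, edgeR, adjusted p = 0.000635). A region of Nfil3, a basic leucine zipper factor, averaged 2.46 ± 0.33 CPM in female VAT Tregs and 0.660 ± 0.248 CPM in spleen Tregs (adjusted p = 0.0418).

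The region most like a Klrg1 region in its pattern was sought for region 1, whose group means had the widest range on the log2 scale, 3.06. Likeness was the root mean square difference of centred log2 CPM over the 8 libraries. Of 44674 autosomal regions, the closest was at N4bp2l2 (chromosome 5, difference 0.144), which had 5.13 and 2.13 CPM in male VAT Tregs, 0.798 and 0.704 CPM in female VAT Tregs, 0.193 and 0.288 CPM in VAT CD4 cells, and 0.485 and 0.657 CPM in spleen Tregs. Regions at Lrrn2 (0.236), Col18a1 (0.252), Unc93a (0.258) and Dopey2 (0.259) followed, beside a median of 1.18 over all regions compared. The other tested Klrg1 regions were between 0.626 (region 10) and 1.17 (region 9) from region 1. Over all regions compared the 0.01 quantile was 0.611. The 5 named regions were picked as the closest of 44674, so their lying closer than the Klrg1 regions is no result about Klrg1. Region 7 was at 0.767.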

How the data were processed

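The authors deposited a table of raw, unnormalised counts and, for each library, log2 CPM values. The deposited log2 values, as tested on the files, are log2 CPM after adding 0.5 to counts and 1 to totals, plus a constant for each library, and served 1 alternative. Per the submitters' processing notes the build is mm10 (GRCm38) and the tools include Subread 1.6.2, HOMER 4.9, featureCounts and limma. How regions were called and assigned to genes, and whether starts count from 0 or 1, is not given in the sources used here. The 62205 entries were reduced to 46624 distinct regions, and 46512 with a gene identifier on chromosomes 1 to 19, X and Y were used. Gene positions are from RefSeq (GRCm38.p6).

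CPM were scaled by trimmed-mean-of-M (TMM) factors. Tests used edgeR 4.0.16 (R 4.3.3) with its quasi-likelihood method, fitted to the 8 libraries together with 1 mean per group and 4 residual degrees of freedom, after filterByExpr (minimum count 10) and with Benjamini-Hochberg adjustment. The threshold for a call was 0.05. Standard errors are approximate: the size of the log2 fold change over the root of F. On simulated counts for male minus female VAT Tregs over 45709 regions, 94.5% of 200 regions changed 4-fold were recovered, and 8.25% of the calls were false. Alternatives were DESeq2 1.42.0, library size alone, TMM on short autosomal regions, no filter, the compared groups alone, a replicate block, limma-voom and limma-trend (3.58.1), and leaving out each library. The Klrg1 regions, gene lists and tests were chosen with earlier results of these data known. All Klrg1 regions are named; of other genes, neighbours called in any comparison, the 5 regions most like region 1, and called genes with the largest log2 fold changes per list (at most 3 for each list and comparison), Foxp3 and Uty.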

Additional observations from a re-analysis of the deposited data

How the results depend on the processing

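The count of Klrg1 regions higher in male than in female VAT Tregs (4) was 2 with DESeq2, and ran from 2 to 6 when 1 library was left out. Against spleen Tregs (6) it was 3 with TMM on short regions and 3 with the replicate block, and ran from 2 to 7; against VAT CD4 cells (4) it ran from 2 to 5. The filter then asks for its level in 1 library instead of 2. Calls over all 45709 regions moved with the setting as well. Between the sexes 934 were higher in the main fit, 354 with DESeq2 and 790 with the replicate block. Against spleen Tregs 2121 were higher in the main fit, 1260 with TMM on short regions and 1829 with the block. Against VAT CD4 cells 2368 were higher in the main fit and 2097 with the block. Replicate numbers did not pair the libraries (correlations of deviations -0.146 to 0.07); the replicate block gave 3 calls against female VAT Tregs and 3 against VAT CD4 cells, and 0 in the comparisons without male VAT Tregs. Between female VAT Tregs and VAT CD4 cells limma-trend called 1, and each fit without 1 library called 0.

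No called region reversed. Of those not called, region 9 changed sign between male and female VAT Tregs with TMM on short regions (-0.035) and between male VAT Tregs and VAT CD4 cells with library size alone (0.074). Between female VAT Tregs and VAT CD4 cells, region 2 gave 0.049 with library size alone and region 8 gave -0.044 with TMM on short regions; between VAT CD4 cells and spleen Tregs, region 8 gave -0.10 with library size alone. Without 1 library at a time, region 9 ran from -0.36 to 0.42 (male minus female VAT Tregs), -0.18 to 1.17 (male VAT minus spleen Tregs), -0.54 to 0.28 (male VAT Tregs minus CD4 cells), -0.24 to 1.05 (female VAT minus spleen Tregs), -0.41 to 0.17 (female VAT Tregs minus CD4 cells) and -0.065 to 1.22 (CD4 cells minus spleen Tregs). For female VAT minus spleen Tregs, region 6 ran from -1.77 to 0.46 and region 7 from -0.28 to 0.80. For female VAT Tregs minus CD4 cells, region 2 ran from -0.23 to 0.16, region 4 from -0.54 to 1.43, region 6 from -2.23 to 0.35 and region 10 from -0.10 to 0.89. For CD4 cells minus spleen Tregs, region 6 ran from -0.57 to 1.13 and region 10 from -0.34 to 0.65. The causes were not tested.

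TMM on short regions moved the median of all regions to -0.11 for male minus female VAT Tregs, -0.17 for male VAT minus spleen Tregs and -0.25 for male VAT Tregs minus CD4 cells, and the all-region calls between the sexes to 463 higher and 554 lower, beside 934 and 555. Without the filter, region 5 had a log2 fold change of 3.26 between the sexes (adjusted p = 0.0526). At the low regions, with 1 to 30 counts per library outside male VAT Tregs, smaller differences were not detectable at this depth.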
